A study of Mus musculus with 6 samples.

Results

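The genes described here serve protein folding in the endoplasmic reticulum (ER) and the cytosol: 36 genes of ER chaperones, disulfide isomerases, ER-associated degradation, stress sensors and the translocon, and 12 genes of cytosolic heat shock proteins and heat shock factors. These 48 members were chosen by symbol, and 47 of them had a probe named here, of 20659 genes with a named probe on the array. Of the 47, 44 were tested, among 15617 genes tested in all, and 40 of the 44 were well above background on all 6 arrays. Gene expression was measured on 6 one-colour Agilent arrays, on RNA of cultured mouse liver cells that carry CD63, a membrane protein of endosomes and exosomes by which they had been sorted. The DDC injury group held 3 arrays of cells from livers injured with DDC, a compound that disturbs haem synthesis and injures the bile ducts, and the no-injury group held 3 arrays of cells from uninjured livers. Cells of both groups had grown in a medium supplemented with dexamethasone, nicotinamide, insulin, EGF, HGF and serum, so the values are those of cultures. The growth factors VEGF and bFGF were added to cultures whose numbers are not tied to a sample, and since 2 no-injury arrays carry such numbers, the addition may belong to that group. The series' text speaks of 6 cell lines, and the strain, the age and the number of animals were not given in the sources used here.

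Proteins bound for secretion or membranes enter the ER through the Sec61 channel, fold there with the help of the Hsp70-type chaperone BiP (Hspa5), its co-chaperones, lectin chaperones and disulfide isomerases, and leave it or are sent back to the cytosol for degradation. When unfolded proteins build up, the sensors IRE1 (Ern1), ATF6 and PERK (Eif2ak3) start the unfolded protein response, in which spliced XBP1 and cleaved ATF6 drive chaperone and degradation genes and PERK slows translation while favouring that of ATF4. The cytosol has a separate system, in which heat shock factor 1 (Hsf1) drives inducible chaperones such as Hspa1a, Hsph1 and Dnajb1. Liver cells make much secreted protein and carry a large ER.

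ATF6 and XBP1 are known to act on the ER stress element, CCAAT and CCACG 9 bases apart. The stretches that hold it are shown as a description. The element is known from promoters of ER chaperone genes, which are among the members. Its share among the members is therefore not independent of how they were chosen, and it was not tested. The 250 bases before the start of each gene were searched on both strands in RefSeq promoters of assembly GRCm38.p6, where 38 of the 48 members matched. The element stood in 9 of these 38 members (23.7%) and in 35 of all 27025 promoters (0.130%), the 9 included. Its second form, ATTGG and CCACG 1 base apart, stood in the promoter of 1 member, Herpud1, and in 10 of all promoters (0.0370%). Each stretch is given 5′ to 3′ along the gene, with both parts of the element in capitals. These read CCAAT and CCACG where the element runs along the gene and CGTGG and ATTGG where it runs against it, and Hsp90b1 held 2 elements, one in each direction.
Hspa5 (chr2:34772005-34772063, plus strand): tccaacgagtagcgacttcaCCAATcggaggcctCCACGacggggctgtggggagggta
Hsp90b1 (chr10:86705513-86705676, minus strand): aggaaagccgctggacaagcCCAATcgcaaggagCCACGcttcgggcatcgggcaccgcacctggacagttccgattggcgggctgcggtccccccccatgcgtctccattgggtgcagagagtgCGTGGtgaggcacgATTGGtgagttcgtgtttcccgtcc
Calr (chr8:84847055-84847113, minus strand): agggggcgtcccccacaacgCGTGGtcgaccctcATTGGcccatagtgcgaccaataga
Canx (chr11:50325780-50325838, minus strand): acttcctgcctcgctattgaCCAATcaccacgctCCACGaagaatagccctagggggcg
Creld2 (chr15:88819500-88819558, plus strand): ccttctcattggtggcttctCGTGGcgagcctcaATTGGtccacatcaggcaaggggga
Dnajc3 (chr14:118937807-118937865, plus strand): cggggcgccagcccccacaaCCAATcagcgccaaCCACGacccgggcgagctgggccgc
Pdia6 (chr12:17266471-17266529, plus strand): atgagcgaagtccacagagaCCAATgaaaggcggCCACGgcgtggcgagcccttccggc
Syvn1 (chr19:6046512-6046570, plus strand): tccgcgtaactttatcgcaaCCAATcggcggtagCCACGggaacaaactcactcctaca
Derl3 (chr10:75893222-75893280, plus strand): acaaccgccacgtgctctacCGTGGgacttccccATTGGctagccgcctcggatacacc
Herpud1 (chr8:94386357-94386407, plus strand): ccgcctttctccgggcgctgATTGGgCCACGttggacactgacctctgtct

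CCAAT alone stood on either strand in 29 of the 38 members (76.3%) and in 37.5% of all promoters. The UPR element (TGACGTGG) stood in the window of 0 members and 0.603% of promoters. The heat shock element was searched as 3 units GAA, TTC and GAA or TTC, GAA and TTC, each 2 bases apart. It stood in the window of 0 members and 0.514% of promoters. Both searches took exact matches only, and the promoters searched included those of Hspa1a, Hsph1 and Dnajb1. Sites that depart from these sequences or lie outside the window were not searched. The 0 members therefore do not show that these genes lack such elements. Of the 9 members with the ER stress element, Hsp90b1, Creld2 and Pdia6 rose in the DDC injury group, 6 did not pass the test, and 0 fell, while Herpud1, with the second form, fell. Of all genes tested 17.7% rose and 15.8% fell, the promoter not considered, and the rise of Pdia6 holds for 1 of its 2 probes.

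The no-injury arrays lay close together. Between replicates 1 and 3 a chi-square test over 199 probes printed 10 times found no difference beyond spot noise (220.4 at 198 degrees of freedom, p = 0.131), their spread being 1.098 times that noise, against 1.54 and 2.11 times for the other two no-injury pairs. Replicates 1 and 3 were averaged and counted once, which is a choice and does not show that they are the same sample. This left 3 samples with DDC injury and 2 without. Each of 3 scans held arrays of 1 group, with replicate 1 of the DDC injury group read on another day than the rest, so that scan and group cannot be told apart. The 75th percentile of the processed signal was between 1441 and 2271 intensity units, between 65.0% and 74.8% of 43020 spots were well above background, and 0 were saturated. Cd63 itself was well above background on all 6 arrays and differed by -0.11 ± 0.17 on the log2 scale (SE, adjusted p = 0.659). The summed level of 10 cholangiocyte and progenitor markers, as log2, was 5.92 to 6.04 on DDC injury arrays and 6.35 to 6.41 on no-injury arrays, with Onecut1 not well above background on any array. A few bright probes set such a sum. Of 8 tested markers of this list 0 rose and 4 fell, namely Prom1 (a log2 difference of -8.69), Epcam (-2.58), Sox9 (-1.57) and Cdh1 (-0.97). The other 4 did not pass, among them the bright Krt19 (0.37), Krt7 (0.16) and Spp1 (-0.25). For 10 hepatocyte markers the sum was 5.23 to 5.54 with DDC injury and 5.52 to 5.67 without, while 4 of the 10 fell, among them Alb (-6.14) and Ttr (-3.94), and Apob rose. The other 5 did not pass, among them the bright Hnf4a (-0.09). For 6 mesothelial markers with a value on all 6 arrays, Krt8 having none on 1, the sum was 4.48 to 4.80 with DDC injury and 4.69 to 4.82 without. Msln set most of it, at 4.47 to 4.80 with DDC injury and 4.43 to 4.59 without, and did not pass (0.15, adjusted p = 0.467). Of 5 tested in this list 3 fell, namely Upk1b (-7.73), Wt1 and Upk3b, and 0 rose. For 7 leukocyte markers with a probe the sum was 1.56 to 2.67 with DDC injury and 2.90 to 2.97 without, Clec4f not being well above background on any array. Of 6 tested markers of this list 1 fell, Itgam (-2.73, adjusted p = 0.0058), 0 rose and 5 did not pass. For 8 stellate cell and fibroblast markers the sum was -2.28 to -0.06 with DDC injury and -1.58 to -1.10 without, with Des and Reln not well above background. For 7 endothelial markers it was -2.55 to -0.75 with DDC injury and -0.89 to -0.31 without. For 7 plasma cell and B cell markers with a probe it was 1.70 to 1.75 on DDC injury arrays and 2.05 to 2.09 on no-injury arrays, with Irf4 not well above background on any array. Sdc1 alone set this sum, at 1.67 to 1.72 with DDC injury and 2.03 to 2.06 without. The other probes stood at -5.70 or below. Of 5 tested markers of this list 1 fell, Sdc1 (-0.35, adjusted p = 0.046), and 0 rose. The part of these shifts in the results below was not tested, and fewer cells of a type and less RNA per cell cannot be told apart in such samples.

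In the DDC injury group, Sec61g of the ER translocon, subunits of the attached TRAP complex, several ER chaperones and 2 disulfide isomerases rose. Derl1 of ER-associated degradation, the cytosolic Hspa8 and the factor Hsf1 rose as well. These rises were 1.39-fold to 2.52-fold, and those of Ssr1, Pdia6 and Hspa8 were not shared by their other probes. Sec61b of the translocon did not pass. Herpud1 and Sel1l of ER-associated degradation, the sensor Eif2ak3, the co-chaperone Dnajc10 and the small heat shock protein Hspb1 fell. Of the 44 tested members 14 rose and 5 fell past an adjusted p of 0.05, and 25 did not pass. That is 31.8% of the tested members higher, against 17.7% of all genes tested, and 11.4% lower, against 15.8% of all genes. The median difference, DDC injury minus no injury in log2 units, was 0.35 over the tested members and -0.07 over all genes tested. Among the 34 tested ER members 12 were higher and 4 lower, with a median of 0.46, and the 10 tested heat shock members had 2 higher, 1 lower and a median of 0.13. Values of the 6 arrays did not overlap between the groups in 34 of the 44 members, with DDC injury above in 25 and below in 9, against 63.1% of all genes tested.

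The calls rest on the small spread between the no-injury arrays. The SD was larger over the DDC injury samples than over the no-injury samples in 39 of 44 members, with medians of 0.17 and 0.04 in log2 units. With a single mean of all 3 no-injury arrays, 0 members passed (adjusted p = 0.068 to 0.245 for the 19 that passed above), and without no-injury replicate 2, which also leaves 1 such sample, 0 passed. Without DDC injury replicate 3, 9 passed. Among arrays of the second scan day alone (without DDC injury replicate 1) all 19 passed in the same direction.

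**Figure D1:**
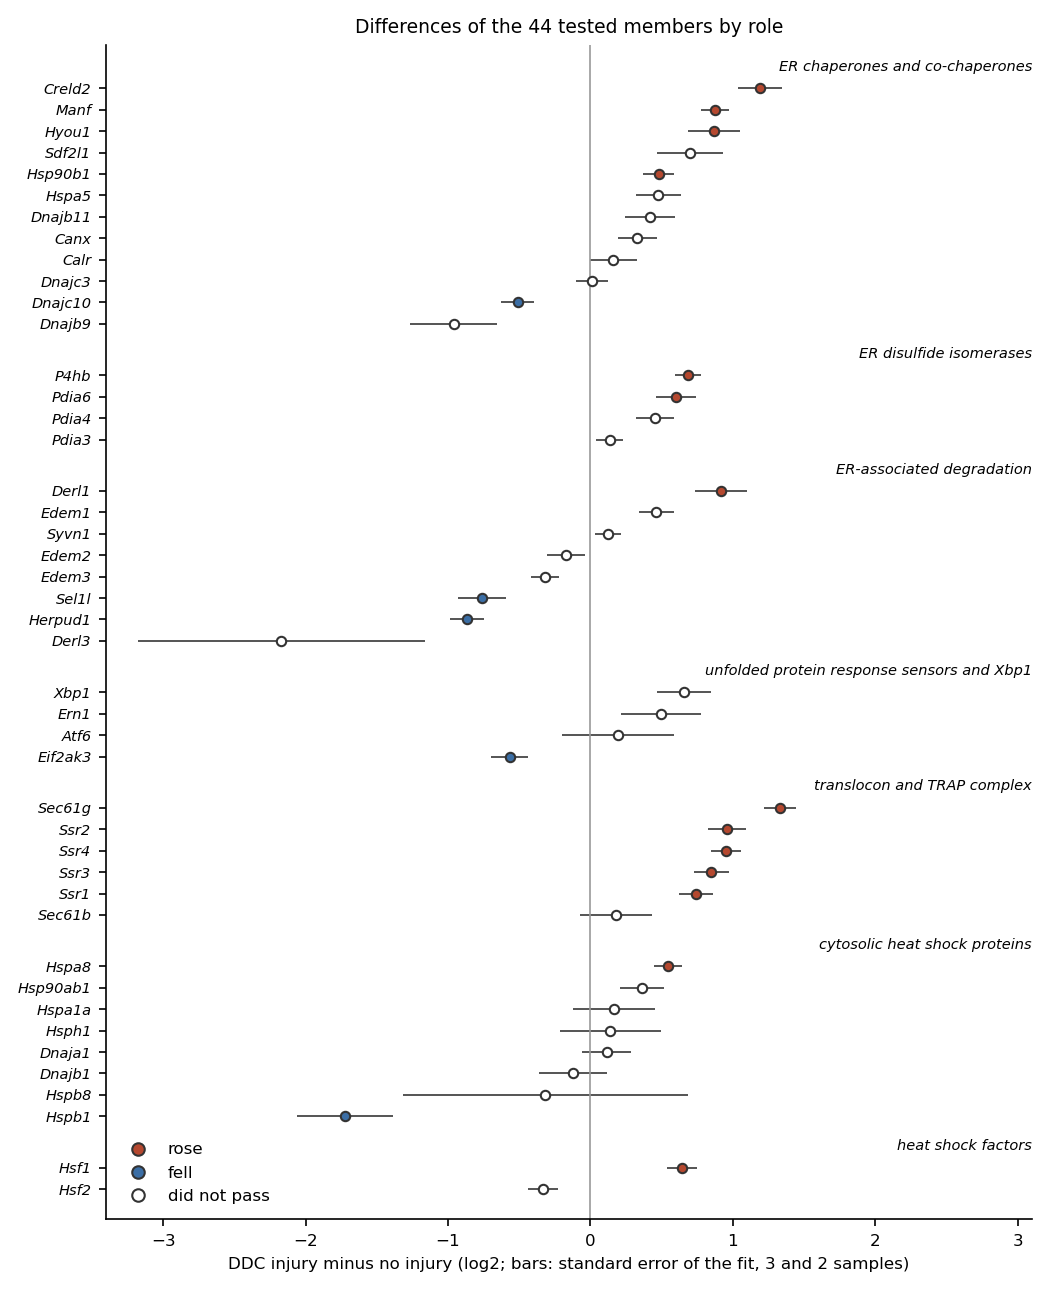
Difference between DDC injury and no injury (log2, horizontal axis) of each of the 44 tested members, grouped by role, with the standard error of the fit as bars; red points rose, blue points fell and open points did not pass. In the translocon and TRAP group 5 of 6 members are red, and the degradation group spans 0.92 for Derl1 to -2.17 for Derl3.

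Most translocon and TRAP genes rose. Of 6 tested members of this role 5 rose (83.3%) and 0 fell, with a median difference of 0.90. Of all genes tested 17.7% rose and 15.8% fell, and the shares of this role were not tested against that. Sec61g, the small gamma subunit of the channel, had log2 signals relative to the array's 75th percentile of 3.49, 3.32 and 3.28 on the DDC injury arrays and of 2.05, 2.03 and 2.01 on the no-injury arrays. These groups lay more than 1 log2 unit apart, and the difference of 1.33 ± 0.11 (SE, 2.52-fold, adjusted p = 0.0036) was the largest rise among the tested members. The TRAP complex sits beside the channel and helps some signal sequences to insert. Its subunit Ssr4 stood at 4.09, 4.26 and 4.14 in the DDC injury group and at 3.23, 3.18 and 3.24 in the no-injury group, a difference of 0.95 ± 0.10 (adjusted p = 0.0061). Ssr2 stood at 2.49, 2.18 and 2.38 in the DDC injury group and at 1.39, 1.39 and 1.40 in the no-injury group, a difference of 0.96 ± 0.13 (adjusted p = 0.0103). Ssr3 stood at 5.03, 5.27 and 5.20 in the DDC injury group and at 4.28, 4.36 and 4.28 in the no-injury group, a difference of 0.85 ± 0.12 (adjusted p = 0.011). In each of these 3 subunits the lowest DDC injury array was above the highest no-injury array, and a second probe of Ssr3 differed by 1.19 ± 0.12.

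The remaining subunits were less certain. The probe of Ssr1, the alpha subunit, had no value on DDC injury replicate 1, whose spot was flagged as an outlier. It stood at 3.99 and 3.91 on the other two DDC injury arrays and at 3.16, 3.25 and 3.17 on the no-injury arrays, a difference of 0.74 ± 0.12 (adjusted p = 0.0253). With flagged spots kept, a setting chosen after seeing the data, replicate 1 stood at 3.46 and Ssr1 did not pass (0.57 ± 0.20, adjusted p = 0.0961, range over its alternatives 0.003 to 0.993). Sec61b, the beta subunit, stood at 3.51 and 2.92 on DDC injury replicates 1 and 2, with replicate 3 flagged, and at 2.97, 3.08 and 3.0 on the no-injury arrays. Its groups overlapped, and it did not pass (0.18 ± 0.25, adjusted p = 0.637). Sec61a1, which encodes the channel itself, was not tested because 2 of its spots were flagged. With these kept it stood at 2.85, 3.0 and 3.0 in the DDC injury group and at 2.85, 3.08 and 2.98 in the no-injury group (-0.05 ± 0.12, adjusted p = 0.770).

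Among the ER chaperones and co-chaperones 4 of 12 rose (33.3%), 1 fell (8.3%) and 7 did not pass, with a median of 0.45. Of all genes tested 17.7% rose and 15.8% fell, and the shares of this role were not tested against that. The largest rise was that of Creld2, a secreted ER stress protein with isomerase-like domains. It stood at 2.74, 3.12 and 2.79 in the DDC injury group and at 1.70, 1.71 and 1.67 in the no-injury group, with no overlap and a difference of 1.19 ± 0.16 (2.28-fold, adjusted p = 0.0091). Manf, a small protein that binds BiP and can be secreted, stood at 3.07, 3.09 and 3.17 in the DDC injury group and at 2.16, 2.29 and 2.23 in the no-injury group. All DDC injury arrays of Manf were higher and close together, and the difference was 0.87 ± 0.10 (adjusted p = 0.0066). Hyou1, a large Hsp70-type chaperone that releases nucleotide from BiP, stood at -2.74, -3.21 and -2.80 in the DDC injury group and at -3.74, -3.74 and -3.91 in the no-injury group (0.87 ± 0.18, adjusted p = 0.0287). Hsp90b1 (GRP94), the Hsp90 of the ER, stood at 4.15, 4.31 and 4.21 in the DDC injury group and at 3.78, 3.68 and 3.83 in the no-injury group, a 1.39-fold rise (0.48 ± 0.11, adjusted p = 0.035). Its arrays did not overlap, although the gap between the groups was smaller than for the members above.

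Hspa5, the central chaperone of the ER, differed by as much as Hsp90b1 but with more spread. It stood at 4.62, 4.89 and 5.04 in the DDC injury group and at 4.30, 4.39 and 4.41 in the no-injury group, and all DDC injury arrays were the higher ones. The difference of 0.48 ± 0.16 did not pass (adjusted p = 0.0841), and it passed within the second scan day (0.59, adjusted p = 0.0281), with a range over its alternatives of 0.007 to 0.335. The co-chaperone Sdf2l1 (0.70 ± 0.23), the J-domain protein Dnajb11 (0.42 ± 0.18) and the lectin chaperones Canx (0.33 ± 0.14) and Calr (0.16 ± 0.17) had positive differences that did not pass either. Calr turned to -0.09 in the authors' values, and likewise under normexp background correction followed by quantile normalization. Dnajc3, which inhibits PERK, differed by 0.01 ± 0.11.

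2 J-domain cofactors of BiP were lower in the DDC injury group, 1 of them past the test on its main probe. Dnajc10, an ER reductase that opens disulfides of degradation substrates, stood at 1.82, 1.59 and 1.64 in the DDC injury group and at 2.22, 2.20 and 2.19 in the no-injury group, a fall of 0.51 ± 0.12 on the log2 scale (adjusted p = 0.0345). A second probe of Dnajc10 differed by -0.49 ± 0.15 and did not pass. Dnajb9, which brings BiP to IRE1 and to degradation substrates, stood at 1.19, 0.25 and 0.87 in the DDC injury group and at 1.75, 1.73 and 1.73 in the no-injury group. All 3 DDC injury arrays of Dnajb9 were lower, replicate 2 the most, and the difference of -0.96 ± 0.31 did not pass (adjusted p = 0.0793). Its second probe, at -2.20, -2.55 and -1.96 in the DDC injury group and at -1.23, -1.28 and -1.25 in the no-injury group, fell by 0.98 ± 0.21 with an adjusted p of 0.032 over all 27426 probes tested, of which 29.3% passed.

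The ER disulfide isomerases had positive differences in all 4 members, of which 2 rose (50.0%, against 17.7% of all genes tested). P4hb, the classical protein disulfide isomerase and a subunit of the enzyme that hydroxylates collagen, stood at 4.01, 4.08 and 4.08 in the DDC injury group and at 3.45, 3.34 and 3.35 in the no-injury group (0.69 ± 0.09, adjusted p = 0.0102). Pdia6, which also binds IRE1 and PERK, stood at 4.16, 4.44 and 4.13 in the DDC injury group and at 3.62, 3.68 and 3.60 in the no-injury group (0.60 ± 0.14, adjusted p = 0.0364). The arrays of both genes did not overlap between the groups. Pdia4 differed by 0.46 ± 0.13 (adjusted p = 0.0635), and Pdia3, the isomerase of the lectin chaperones, by 0.14 ± 0.10 (adjusted p = 0.339). Pdia3 turned to between -0.06 and -0.02 under quantile normalization and in the authors' values.

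**Figure D2:**
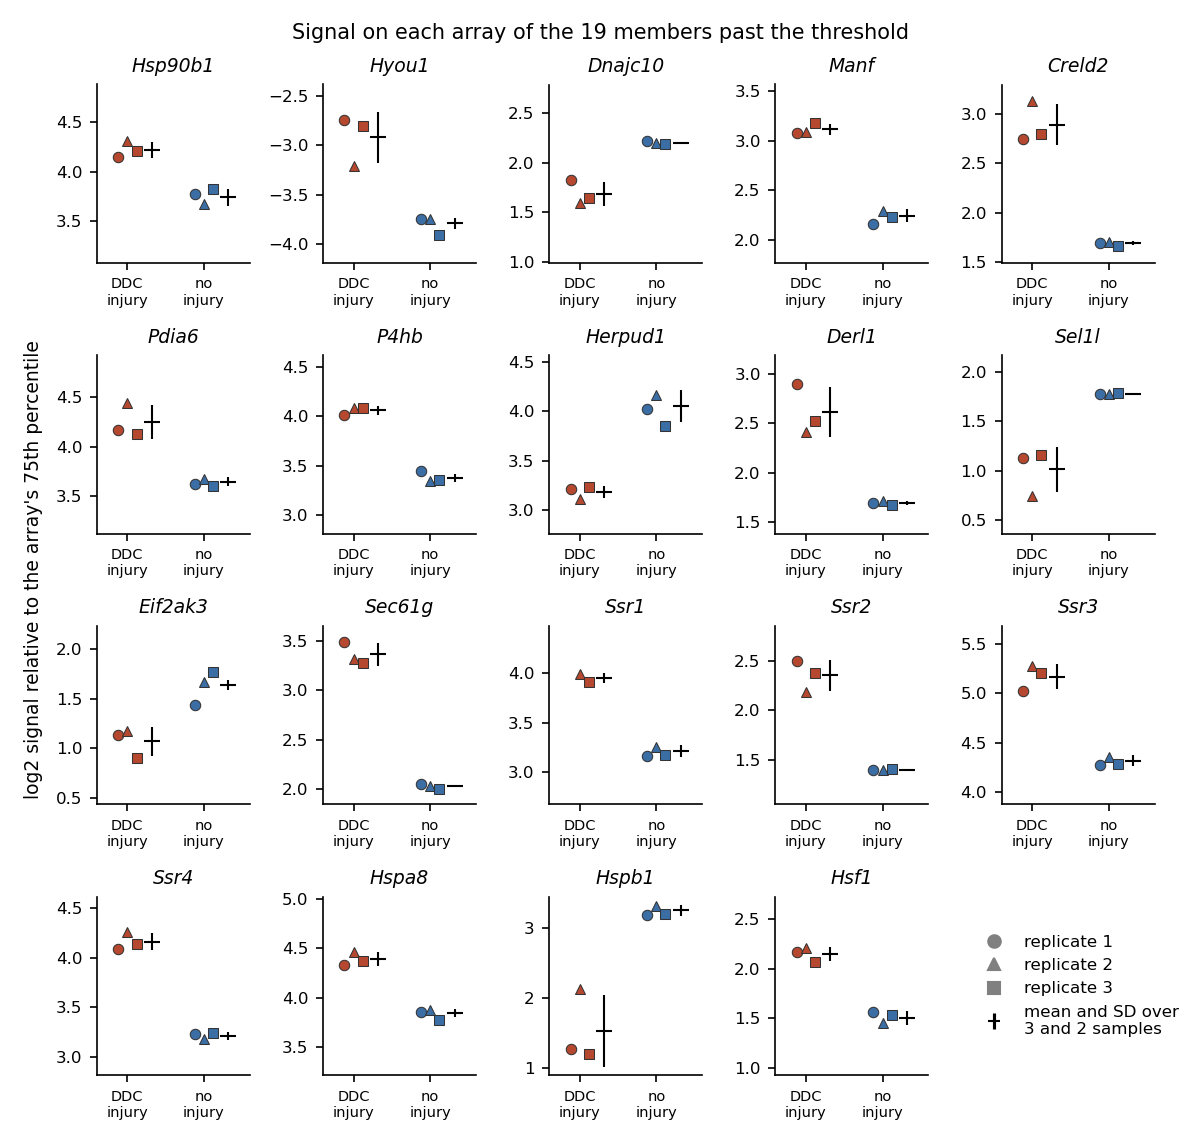
Log2 signal relative to the array's 75th percentile on each of the 6 arrays for the 19 members that passed the test, DDC injury in red left of no injury in blue, with symbols for the replicates and the mean and SD over 3 and 2 samples in black. Every panel has its own vertical range, and in none of them do the groups overlap.

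Genes of ER-associated degradation were split in direction. Of 8 tested members 1 rose (12.5%), 2 fell (25.0%) and 5 did not pass, with a median of -0.25. Of all genes tested 17.7% rose and 15.8% fell. The shares of this role rest on few genes and were not tested against that background. Derl1, a membrane protein of the retrotranslocation channel, stood at 2.90, 2.41 and 2.53 in the DDC injury group and at 1.69, 1.71 and 1.67 in the no-injury group, with no overlap (0.92 ± 0.18, adjusted p = 0.0244). Its second probe differed by 0.41 ± 0.18 and did not pass. Herpud1, a scaffold of the ubiquitin ligase complex, stood at 3.21, 3.11 and 3.23 in the DDC injury group and at 4.02, 4.17 and 3.85 in the no-injury group, a 1.82-fold fall (-0.87 ± 0.12, adjusted p = 0.0105). Sel1l, the partner that holds the ligase in place, stood at 1.13, 0.75 and 1.16 in the DDC injury group and at 1.77, 1.77 and 1.78 in the no-injury group (-0.76 ± 0.17, adjusted p = 0.0316). Syvn1, the ligase Hrd1 itself, stood within 2.38 to 2.46 in the DDC injury group and 2.29 to 2.31 in the no-injury group, and its difference of 0.13 ± 0.09 did not pass (adjusted p = 0.363).

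The EDEM proteins, which trim mannose from misfolded glycoproteins, were split as well, and none passed. Edem1 differed by 0.46 ± 0.12 (adjusted p = 0.0513), Edem3 by -0.32 ± 0.10 (adjusted p = 0.0741) and Edem2 by -0.17 ± 0.13 (adjusted p = 0.380). Derl3, a derlin of secretory cells, was dim and well above background on 1 DDC injury array and on all 3 no-injury arrays. It stood at -9.23, -6.59 and -6.30 in the DDC injury group and at -5.43, -5.07 and -5.24 in the no-injury group, and the difference of -2.17 ± 1.01 did not pass (adjusted p = 0.173), while in the authors' values it was -0.89 (adjusted p = 0.029, range over its alternatives 0.016 to 0.459). Derl2 was not tested because 2 spots of its brightest probe were flagged. With these kept its DDC injury arrays stood at 1.1, 1.04 and 0.81 and its no-injury arrays at 0.07, 0.30 and 0.66 (0.65 ± 0.13, adjusted p = 0.0257), but this no-injury spread came between replicates 1 and 3, which were counted as 1 sample. Its other two probes differed by 0.54 and -0.24.

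Of the 3 stress sensors and Xbp1, 1 gene fell (25.0%) and 0 rose, against 15.8% lower and 17.7% higher of all genes tested. Eif2ak3 (PERK) stood at 1.13, 1.18 and 0.90 in the DDC injury group and at 1.44, 1.67 and 1.76 in the no-injury group, with no overlap (-0.57 ± 0.13, adjusted p = 0.0343). Without no-injury replicate 3 it did not pass (adjusted p = 0.068), and its range over the alternatives was 0.004 to 0.242. Xbp1 stood at 3.70, 3.21 and 3.63 in the DDC injury group and at 2.86, 2.85 and 2.87 in the no-injury group. All DDC injury arrays of Xbp1 were higher, and the difference of 0.66 ± 0.19 did not pass (adjusted p = 0.0601). It was 0.81 without DDC injury replicate 2 (adjusted p = 0.008, range over its alternatives 0.003 to 0.280). Replicate 2 was the lowest DDC injury array of Xbp1, so the fit without it is no separate test. The array gives no splice form of Xbp1. Ern1 (IRE1) stood at -3.85, -4.31 and -3.45 in the DDC injury group and at -4.33, -4.40 and -4.34 in the no-injury group (0.49 ± 0.28, adjusted p = 0.249). Atf6 stood at 0.56, -0.57 and 0.44 in the DDC injury group and at -0.06, -0.05 and -0.05 in the no-injury group. DDC injury replicate 2 of Atf6 lay below all no-injury arrays and the other two above them, and the difference was 0.19 ± 0.39 (adjusted p = 0.737).

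The cytosolic heat shock proteins had no common direction, with 1 of 8 tested members higher (12.5%), 1 lower (12.5%) and a median of 0.13. Of all genes tested 17.7% were higher and 15.8% lower, so these shares are near those of all genes. Hspb1 (HSP27), a small heat shock protein that binds unfolded proteins and actin, stood at 1.28, 2.13 and 1.20 in the DDC injury group and at 3.19, 3.31 and 3.21 in the no-injury group. All DDC injury arrays were lower by more than 1 log2 unit, and the fall of 1.72 ± 0.33 (3.30-fold lower, adjusted p = 0.0236) was the largest among the members that passed. Hspa8, the constitutive Hsp70, stood at 4.33, 4.46 and 4.37 in the DDC injury group and at 3.85, 3.87 and 3.78 in the no-injury group (0.54 ± 0.10, adjusted p = 0.0206). Its other probes did not share this difference, as given below. Hsp90ab1, the constitutive Hsp90, differed by 0.36 ± 0.15 (adjusted p = 0.146). Hsp90aa1, the inducible form, was not tested because 3 spots were flagged. With these kept it stood at 3.86, 3.59 and 3.72 in the DDC injury group and at 3.84, 3.94 and 3.86 in the no-injury group, which overlap (-0.17 ± 0.12, adjusted p = 0.353).

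The inducible Hsp70 gene Hspa1a stood at -2.44, -1.64 and -2.36 in the DDC injury group and at -2.30, -2.36 and -2.23 in the no-injury group. Only DDC injury replicate 2 lay outside the other 5 arrays, and the difference was 0.17 ± 0.29 (adjusted p = 0.695). No probe was named for its close copy Hspa1b, and transcripts of both genes may bind the Hspa1a probe. Hsph1, an Hsp110 that releases nucleotide from Hsp70, differed by 0.14 ± 0.36, the J-domain proteins Dnaja1 and Dnajb1 by 0.12 ± 0.17 and -0.12 ± 0.24, and none of them passed. Hspb8, a small heat shock protein of chaperone-assisted autophagy, was dim, at -6.67, -8.39 and -5.21 in the DDC injury group and at -6.42, -6.69 and -5.95 in the no-injury group (-0.32 ± 1.0, adjusted p = 0.833). Of the heat shock factors, Hsf1 rose, at 2.17, 2.21 and 2.07 in the DDC injury group and 1.56, 1.46 and 1.54 in the no-injury group (0.64 ± 0.10, adjusted p = 0.0147). Hsf2, at -2.38, -2.45 and -2.55 in the DDC injury group and at -2.05, -2.18 and -2.12 in the no-injury group, did not pass (-0.33 ± 0.11, adjusted p = 0.0805).

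DDC injury replicate 2 differed from replicates 1 and 3 in the cytosolic heat shock genes and, the other way, in a part of the ER stress genes. Its departure was not confined to these genes. Over the 199 repeatedly printed probes, replicate 2 spread from replicate 1 by 12.4 times the spot noise and from replicate 3 by 15.5 times. Between replicates 1 and 3 it was 5.5 times. Pearson correlations of the tested signals had another order, at 0.963, 0.987 and 0.970 for these pairs. On the main probe, replicate 2 was the highest of the 3 DDC injury arrays in 7 of 8 cytosolic heat shock members (not Hspb8). The share over all genes with 3 values was 37.1%. The median gap to the mean of replicates 1 and 3 was 0.51 over these 8 members and 0.07 over all genes. In a list of other cytosolic chaperones and co-chaperones replicate 2 was highest in 15 of 31 genes, with a median gap of 0.10. On the other probes of Hspa8 replicate 2 stood at 3.86 and 3.71, below replicate 3 at 3.87 and 3.94. For Hsp90aa1 with flagged spots kept it was the lowest (3.59). In the authors' values replicate 1 was highest for Hspa8 (15.40, against 15.33 on replicate 2) and Hsp90ab1 (16.29, against 16.26). There Hspa1a, Hspb1, Hsph1, Dnaja1 and Dnajb1 kept replicate 2 highest. Hsph1 stood at 2.02 on replicate 2, against 1.23 on replicate 1 and 0.95 on replicate 3, and at 1.27, 1.24 and 1.28 on the no-injury arrays. Dnajb1 stood at 2.03 on replicate 2, against 1.44 and 1.40 on replicates 1 and 3, and at 1.76, 1.73 and 1.76 on the no-injury arrays. For Hsph1, Dnajb1, Dnaja1 and Hspa1a replicate 2 was above every no-injury array, and replicates 1 and 3 of Dnajb1 were below every one. Without replicate 2 the median of the cytosolic members was -0.05, and Dnajb1 fell by 0.33 on the log2 scale (adjusted p = 0.033, range over its alternatives 0.033 to 0.976). That fit is picked out after the values of replicate 2 were seen and is no separate test of a fall.

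The sensors and stress response factors had the reverse order, and the ER chaperones did not. Replicate 2 was the lowest DDC injury array for Ern1, Atf6 and Xbp1, 3 of the 4 genes of that role, and in 13 of 17 genes of a list of stress response factors and their targets, with a median gap of -0.56, against 34.0% of all genes. Among the 12 ER chaperones and co-chaperones replicate 2 was highest in 6 and lowest in 4, with a median gap of 0.09, and it was highest for Sdf2l1, Creld2 and Dnajb11 as well as for the isomerase Pdia6 and the sensor Eif2ak3. Replicate 2 was also lowest in 4 of 8 degradation members (highest in 0). The same held for 10 of 19 oxidative folding genes (highest in 2) and 9 of 17 translocation genes (highest in 6). Their median gaps were smaller, at -0.08, -0.06 and -0.08. Ddit3 (CHOP), a factor downstream of ATF4, stood at 3.80, 0.89 and 3.83 on the DDC injury arrays and at 2.73, 2.73 and 2.69 on the no-injury arrays. Replicates 1 and 3 lay about as far above the no-injury arrays as each other, replicate 2 lay below them, and the difference of 0.12 ± 1.05 did not pass (adjusted p = 0.941), while without replicate 2 it was 1.09 (adjusted p = 0.005, range over its alternatives 0.005 to 0.998). Chac1 and Trib3, both known targets of ATF4 and CHOP and named here after their values were seen, stood at 4.10, 3.05 and 4.33 and at 4.54, 2.36 and 4.75 on the DDC injury arrays, against 2.43, 2.44 and 2.43 and 2.31, 2.28 and 2.30 on the no-injury arrays. For both genes replicate 2 was the DDC injury array nearest to the no-injury arrays. Without replicate 2, Atf6 passed at a difference of 0.55 (adjusted p = 0.018, range over its alternatives 0.018 to 0.982). The fits without replicate 2 are picked out for these genes after its values were seen. They remove the array that departs and are no separate test of a rise. The origin of these differences between DDC injury arrays was not tested.

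**Figure D3:**
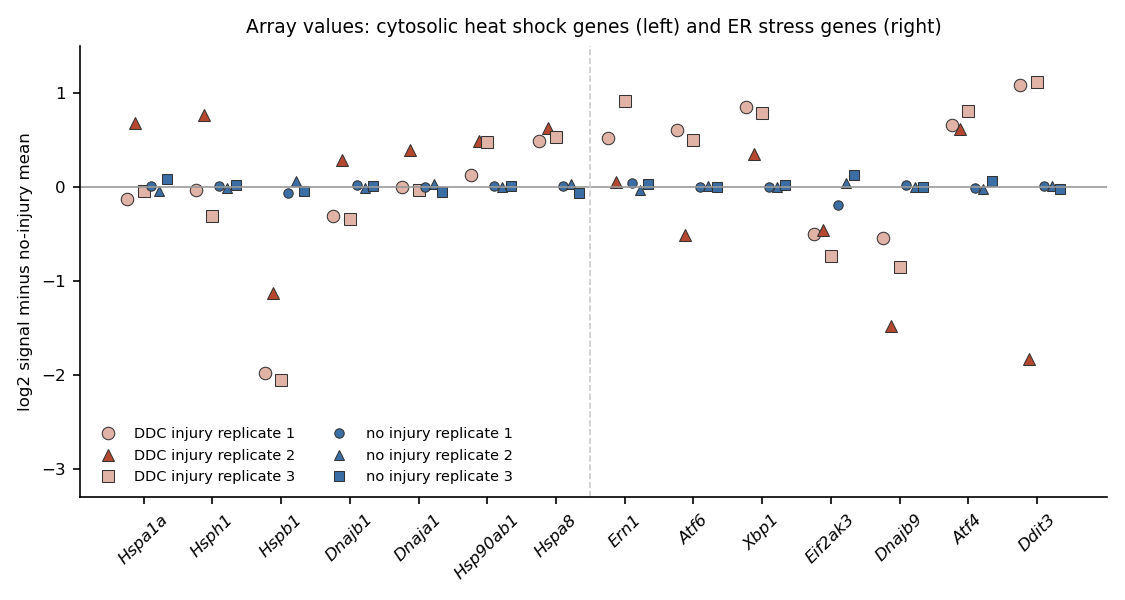
Log2 signal of each array minus the mean of the no-injury samples (vertical axis) for 7 cytosolic heat shock members, the dim Hspb8 left out, and 7 ER stress genes, 5 of them members; DDC injury arrays are red, replicate 2 dark, and stand left of the no-injury arrays in blue. Replicate 2 (dark triangles) is the highest red point in all 7 heat shock genes, by little in Hsp90ab1. It is the lowest in Ern1, Atf6, Xbp1, Dnajb9, Atf4 and Ddit3, by little in Atf4, but not in Eif2ak3. Dnajb9 is taken from the 12 ER chaperones and co-chaperones, among which replicate 2 was highest in 6 and lowest in 4.

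Probes of 1 gene did not always share a direction. The members had 62 probes, of which 58 were tested, and over all probes 16 member probes rose and 7 fell, against 15.5% and 13.8% of the 27426 probes tested. Among 11 members with several tested probes, 6 had differences of both signs, namely Derl2, Dnaja1, Hspa8, Pdia6, Sec61b and Ssr1. The other probes of Hspa8 stood at 3.78, 3.86 and 3.87 and at 3.78, 3.71 and 3.94 in the DDC injury group, against 3.97, 3.95 and 3.91 and against 3.80, 3.89 and 3.85 in the no-injury group, differences of -0.11 ± 0.10 and -0.05 ± 0.12. The mean over the 3 probes of Hspa8 did not pass. The other probe of Pdia6 stood at -0.63, 0.00 and -0.66 in the DDC injury group and at -0.30, -0.26 and -0.31 in the no-injury group (-0.15 ± 0.25). The others of Ssr1 differed by -0.38 ± 0.12 and -0.15 ± 0.17, and the mean over the probes of Ssr1 was 0.00. The main probe of Dnaja1 stood at 3.69, 4.07 and 3.65 in the DDC injury group and at 3.68, 3.72 and 3.63 in the no-injury group, which overlap. A second, much dimmer probe of Dnaja1, at -3.52, -3.23 and -3.65 in the DDC injury group and -2.54, -2.76 and -2.62 in the no-injury group, fell by 0.80 ± 0.17 (adjusted p over all probes = 0.033). The second probe of Sec61b differed by -0.08 ± 0.11. The rises of Hspa8, Pdia6 and Ssr1 therefore hold for the probe with the highest signal only.

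**Figure D4:**
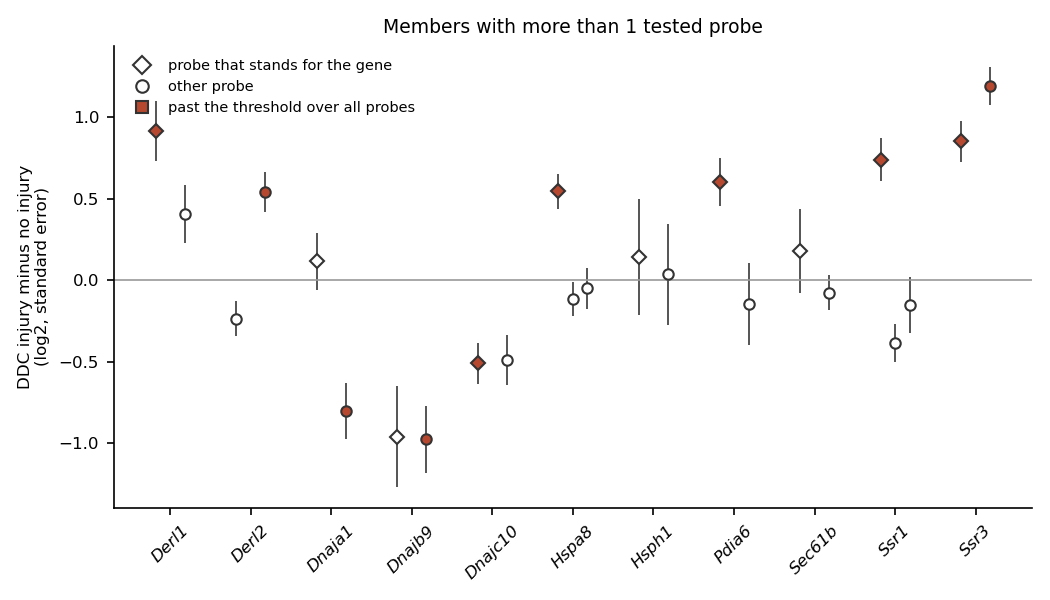
Difference between DDC injury and no injury (log2, vertical axis, with standard error) of every tested probe of the 11 members that have more than 1; diamonds mark the probe that stands for the gene, circles other probes, and filled symbols passed the test over all probes. Probes lie on both sides of 0 in 6 members, while those of Derl1, Ssr3, Dnajb9 and Dnajc10 share their sign.

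Related genes of the same compartments, taken from lists of pathway genes, were described by counts beside the same background of 17.7% higher and 15.8% lower. Of 168 tested genes in all lists 44 rose and 18 fell, with a median of 0.25. Of 17 genes of retrieval and exit from the ER 5 rose and 0 fell, with a median of 0.29, among them Kdelr3, a receptor that returns chaperones to the ER (1.59 ± 0.12, adjusted p = 0.003), and the coat protein Sec24d (1.03). Lman2, a cargo lectin, rose by 0.57, but its second probe differed by -0.23 and the mean of its probes did not pass (0.17, adjusted p = 0.227, the highest over its alternatives). Of 17 genes of signal recognition, signal peptidase and other translocation steps 3 rose and 0 fell, with a median of 0.20. Tram2, a translocation protein linked to collagen synthesis, rose by 1.96 ± 0.15, or by 1.16 with normexp and the 75th percentile. Srprb, of the signal recognition receptor, rose by 1.27, or by 0.77 as the mean of its probes, the second of which did not pass (0.26). Srp9, of the signal recognition particle, rose by 0.46 and passed in 8 of 19 alternative settings. Of 16 genes of N-glycan transfer 5 rose and 1 fell, with a median of 0.32. They included Magt1 (1.72 ± 0.14) and Rpn1 (0.64), both of the oligosaccharyltransferase, and Prkcsh of glucosidase II (0.47). Prkcsh passed in 11 of 19 alternative settings and differed by 0.19 in the authors' values (adjusted p = 0.359, the highest over its alternatives). Of 20 genes of oxidative folding 6 rose and 1 fell, with a median of 0.18, the peroxiredoxin Prdx4 by 1.90 ± 0.13 and the prolyl isomerase Fkbp7 by 1.37, while Erp44, which retains oxidases, fell by 1.14. Prdx4 had no value on DDC injury replicate 1, whose spot was flagged, and with it kept did not pass (1.44 ± 0.51, adjusted p = 0.0995, the highest over its alternatives).

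As among the members, further genes of ER-associated degradation were split, with 3 of 21 higher (14.3%), 6 lower (28.6%) and a median of -0.12. The shares over all genes tested were 17.7% and 15.8%. The lectin Os9, which hands glycoproteins to the ligase complex, stood at 3.29, 3.37 and 3.14 in the DDC injury group and at 4.62, 4.64 and 4.62 in the no-injury group (-1.36 ± 0.11, adjusted p = 0.003). Svip, an inhibitor of the pathway, fell by 1.35, and the glycanase Ngly1 by 0.90. Of 18 stress response factors and targets 4 rose and 4 fell, with a median of 0.18. Atf4 rose by 0.69 ± 0.11 (adjusted p = 0.0139), its second probe did not pass (1.28 ± 0.51), and in the authors' values Atf4 did not pass (0.21, adjusted p = 0.245, which is the highest over its alternatives). The ER-bound factor Creb3l1 fell by 2.20 ± 0.27 and Dnajc12, a cytosolic J-domain protein, by 1.46, and Ppp1r15b, which recruits the phosphatase of eIF2 alpha, rose by 0.86.

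In the cytosol, 8 of 32 co-chaperones rose and 4 fell, with a median of 0.15. Serpinh1 (HSP47), listed there although it is a collagen chaperone of the ER, stood at -3.67, -3.35 and -3.23 in the DDC injury group and at 1.72, 1.65 and 1.71 in the no-injury group. The groups lay nearly 5 log2 units apart, a 34.3-fold fall (-5.10 ± 0.17, adjusted p = 0.000614), and Serpinh1 passed in 19 of 19 alternative settings, with the 3 no-injury arrays averaged among them. Its 1 probe was well above background on all 6 arrays. The Hsp70 cofactor St13 rose by 1.40 ± 0.12 and the small heat shock protein Hspb6 by 1.64 ± 0.16. Of 14 subunits of the chaperonin TRiC and of prefoldin, which fold actin and tubulin, 7 rose and 0 fell, with a median of 0.53, Vbp1 by 1.55 ± 0.12, Cct7 by 1.03 and Cct3 by 0.66. Of 13 mitochondrial chaperones and proteases 3 rose and 2 fell, with a median of 0.26, the chaperonin Hspd1 by 0.76 and the import protein Dnajc19 by 0.65, while the protease Yme1l1 fell by 0.75. The second probe of Dnajc19 overlapped between the groups (0.42 ± 0.33), and the mean of its probes did not pass (0.53, adjusted p = 0.0695, range over its alternatives 0.003 to 0.18).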

How the data were processed

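RNA of 6 samples was hybridised to 1 Agilent array each (design 026655, Cy3). Per the file headers, the scanner software was Feature Extraction 11.0.1.1, and the processed signal, the median signal and the local background are deposited as intensity values. The authors also deposited a table of normalized log2 values, for which the submitters' processing notes name limma and no version. The column these values started from is not stated, their direction and order follow the scanner values, and the medians of the 6 columns were 6.92 to 6.93.

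Probe names come from matching transcript accessions to RefSeq's GRCm38.p6 table (27234 of 39429 probes with 1 symbol, 0 with several, 12195 with none here), and since the array's annotation is of build mm9 the only coordinates given are those of RefSeq promoters on GRCm38.p6. Spots flagged as non-uniform or population outliers were left out, spots of a probe were averaged, and the array's 75th percentile was subtracted on the log2 scale. A gene is its probe with the highest mean, tested where 3 or more of the 6 arrays had it well above background and each group had 2 or more values. The test was that of limma 3.58.1 (R 4.3.3; lmFit, then eBayes with prior degrees of freedom 1.35), two-sided, adjusted by Benjamini-Hochberg over all genes tested. The fit was also run on simulated data in which a gene had the same spread in both groups. That run does not cover the unequal spread of the groups found here. P-values measure only the spread between these samples, which may be technical, and precision is limited by how few samples there are. For normexp (offset 50) the median signal stood in for the planned mean signal, which the files used here do not hold. Planned protein sequences were not used here.

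Members, lists and alternatives were chosen with earlier results of these data known. Array values are given for members past the threshold, the 2 largest differences of each role, a fixed set (Hspa5, Hsp90b1, Xbp1, Hspa1a, Hspa8, Hsf1) and members whose probes disagree. Outside this rule they are also given for Ern1, Atf6, Hspb8, Hsph1, Dnajb1, Sec61a1 and Hsp90aa1. Of each pathway list the 3 past the threshold that rank first by adjusted p are named, with Atf4 and Ddit3. Array values are given there for Ddit3, Os9 and Serpinh1, and for Chac1 and Trib3, which were added after their values were seen. Alternatives covered background correction, scaling, the authors' values, the probe rule, the filter, replicates, scan, array weights and flagged spots.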

Additional observations from a re-analysis of the deposited data

How the results depend on the processing

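Over 19 alternative settings (18 for Ssr1), the calls of Creld2, Herpud1, Hsf1, Manf, P4hb, Sec61g, Ssr2, Ssr3 and Ssr4 held in 17, those of Derl1, Hspb1 and Hyou1 in 16, Hspa8 in 15, Dnajc10 and Sel1l in 14, Eif2ak3, Hsp90b1 and Pdia6 in 12, and Ssr1 in 8. None of these 19 changed sign. Genes past the threshold numbered 5224, against 547 with the 3 no-injury arrays averaged, 8570 with array weights and 541 to 6958 with 1 replicate left out. Members past it numbered 19, against 0 with the no-injury arrays averaged, which also gave 0 in every role, and 0 to 24 with 1 replicate left out. Leaving out 1 replicate gave 0 to 7 of the ER chaperones (5 in the report), 0 to 2 isomerases (2), 0 to 4 degradation genes (3), 0 to 3 sensors with Xbp1 (1), 0 to 5 translocon and TRAP genes (5), 0 to 3 cytosolic heat shock proteins (2) and 0 to 1 heat shock factors (1). The chaperone count was 8 with all 6 arrays counted separately and with array weights, and 3 with no filter on dim probes and with the scan as a random block. The isomerase count was 1 with quantile normalization of the processed signal, the mean of probes, no filter and the scan block. The degradation count was 5 with normexp plus quantile scaling, the authors' values, 6 arrays and array weights. The count of sensors was 2 with normexp under either scaling, the authors' values, the filter requiring all 6 arrays, and arrays counted separately, 3 with array weights, and 0 with no filter and the scan block. The cytosolic count was 1 with the mean of probes, and that of heat shock factors 2 with 6 arrays and array weights. The member median of 0.35 was 0.22 with quantile normalization and 0.17 with the mean of probes, and 0.33 to 0.45 with 1 replicate left out. The chaperone median of 0.45 was 0.28 with quantile normalization. The isomerase median of 0.53 was 0.38 with normexp and quantile normalization, 0.41 with quantile normalization alone, 0.39 in the authors' values and 0.34 with the mean of probes. The degradation median of -0.25 was -0.13 in the authors' values and with normexp plus quantile scaling. The translocon median of 0.90 was 0.82 with normexp and the 75th percentile, 0.71 in the authors' values and with normexp plus quantile scaling, 0.72 with quantile normalization alone, 0.96 with the mean of probes and with genes well above background on all 6 arrays, 0.85 with flagged spots kept, and 0.85 to 0.91 with 1 replicate left out. Normexp with the 75th percentile gave a median of 0.07 over all genes, against -0.07.

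Signs turned in members that did not pass. Calr was -0.089 with normexp plus quantile scaling and -0.087 in the authors' values. Pdia3 was -0.062 and -0.063 in these and -0.022 with quantile normalization alone. Edem2 was 0.062 with normexp and the 75th percentile and 0.11 in the authors' values and with normexp plus quantile scaling. Hspb8 was 0.25 with normexp and the 75th percentile, 0.11 with normexp plus quantile scaling, 0.15 in the authors' values and 0.75 with array weights. Hsph1 was -0.18 with array weights. Dnaja1 was -0.077 in the authors' values, -0.078 with normexp plus quantile scaling, -0.039 with quantile normalization alone and -0.34 with the mean of probes. With 1 replicate left out, Dnajc3 ranged from -0.037 to 0.075, Atf6 from -0.013 to 0.55, Sec61b from -0.11 to 0.47, Hspa1a from -0.089 to 0.31, Hspb8 from -1.09 to 0.50, Hsph1 from -0.17 to 0.37 and Dnaja1 from -0.020 to 0.19. The cause of these changes was not tested. Same-numbered arrays of the groups correlated in their deviations at 0.117, 0.018 and 0.121, and differently numbered arrays at -0.145 to 0.019. These values do not settle whether the numbers pair the arrays, and the labels do not say so. With the replicate block 5563 genes and 20 members passed, and Hsp90b1, Eif2ak3 and Ssr1 did not. Dim probes such as those of Derl3 and Hspb8 have differences that depend on the background correction.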
